A study of Mus musculus with 2 samples.

Results

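Ifnb1 (ENSMUSG00000048806), the mouse interferon-beta gene, was described in 2 mouse single-cell RNA libraries. Their tumours carry the label of lung cancer xenograft and come from LLC cells, the Lewis lung carcinoma line of the mouse. It is 1 gene of the 34097 listed. The gene was chosen by its own level in the cells of these same libraries, so its levels and the genes that go with it are given as a description, without tests. The control library came from 1 tumour and the other, called the knockdown library, from 1 tumour with a short hairpin RNA to knock down GFPT2, an enzyme of hexosamine synthesis. The labels give no host strain, age or hairpin sequence, and no second tumour of either group. Every difference between the libraries is therefore between 2 samples and has no replicate check, and all 95% intervals cover counting error only.

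Interferon-beta is a secreted antiviral cytokine. Sensors of foreign or misplaced nucleic acid and Toll-like receptors switch its gene on through interferon regulatory factors, NF-kB and the ATF2 and JUN pair, which bind side by side just upstream of the start. The protein binds the receptor of Ifnar1 and Ifnar2 on the same or neighbouring cells, and factors such as Stat2 and Irf9 then turn on interferon-stimulated genes. In tumours, dendritic cells and macrophages are known sources. Even under a uniform stimulus, interferon-beta is typically made by a minority of the cells.

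Ifnb1 lies on chromosome 4 with 1 exon and 1 transcript in the GENCODE annotation, between Hacd4 and Ifna15 among its protein-coding neighbours in RefSeq. The stretch of RefSeq sequence with its upstream control letters is shown because the gene's known inputs converge there. It covers bases 180 to 71 before the RefSeq start, chr4:88522865-88522974 of GRCm38.p6, minus strand, 5′ to 3′, with the NF-kB motif and then the TATA motif in capitals.
Ifnb1: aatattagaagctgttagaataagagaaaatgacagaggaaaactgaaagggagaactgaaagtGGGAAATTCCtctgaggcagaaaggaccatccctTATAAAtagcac
The NF-kB motif, the first run of capitals, searched on both strands, sits at bases 116 to 107 before the start. It was in 25 of 27025 promoter windows of 250 bases (0.0925%), and TATAAA was in 3504 of them. The core letters of an interferon regulatory factor site, GAAA, occur 6 times in the stretch. These matches include letters inside the NF-kB motif and after it, and their frequency in other windows was not counted. The spaced repeat of 2 GAAA separated by any 2 bases, called the IRF repeat here, is in 3.04% of windows on either strand and not in that of Ifnb1. A letter match is a description and not a bound site.

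The control library held 11977 cells and 165824226 unique molecular identifiers (UMIs, each standing for 1 captured RNA molecule), and the knockdown library 12853 cells and 138402860 UMIs. The libraries shared 37 cell barcodes. Gfpt2, the targeted gene, had 296 UMIs (1.79 UMIs per 1000000, written CPM) in the control tumour and 81 (0.585 CPM) in the knockdown library. Cells with more than 20% mitochondrial UMIs, 164 control and 72 knockdown, were set aside. Macrophages were taken as cells with at least 10 UMIs of C1qa, C1qb and C1qc together per 10000, the chains of complement C1q that tissue macrophages make. This gave 4780 control and 5594 knockdown macrophages, with medians of 6085 and 4342 UMIs per cell.

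Macrophages held nearly all Ifnb1 molecules of both tumours. They carried 833 of the 882 Ifnb1 UMIs in the control library (94.4%, 92.7 to 95.9, exact Clopper-Pearson) and 1532 of 1637 in the knockdown library (93.6%, 92.3 to 94.7). The level in macrophages was 20.3 CPM (18.98 to 21.8, exact Poisson) in the control tumour and 43.0 CPM (40.9 to 45.2) in the knockdown library. Few macrophages had any: 284 control cells (5.94%, 5.29 to 6.65) and 576 knockdown cells (10.3%, 9.51 to 11.1) held at least 1 UMI, and these are called Ifnb1-positive.

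The gated cells carried the other defining macrophage genes. In control Ifnb1-positive cells the M-CSF receptor Csf1r was at 185 CPM, the surface marker Adgre1 at 162 CPM and the lysozyme Lyz2 at 6699 CPM. Ptprc-negative cells passed no marker gate and had 0 UMIs of Ptprc, the gene of the leukocyte antigen CD45. How many of them are tumour cells was not measured. In those of the control tumour the same genes were at 2.14, 1.42 and 67.7 CPM. Knockdown Ifnb1-positive cells had 171, 145 and 6126 CPM. Ifnb1-positive and Ifnb1-negative macrophages were close in Cd68 (312 and 313 CPM for the control tumour, 256 and 240 CPM for the knockdown). Fcgr1, a high-affinity antibody receptor, was higher in the positive cells, at 356 against 269 CPM in the control tumour and 335 against 248 CPM in the knockdown library.

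The C1q threshold cut through few Ifnb1-positive cells. Just outside it, with 5 to under 10 C1q UMIs per 10000, 3 of 417 control and 3 of 460 knockdown cells were positive. Just inside, from 10 to under 20, 5 of 353 control and 17 of 563 knockdown cells were. With 20 or more, 279 of 4427 and 559 of 5031 were. Shallow cells could pass the gate on very few molecules: 399 control and 452 knockdown macrophages had under 5 C1q UMIs, and 2 and 6 of them were positive. Another 644 control and 939 knockdown macrophages also passed the marker gate of a second class. They held 37 and 113 of the Ifnb1 UMIs.

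**Figure D1:**
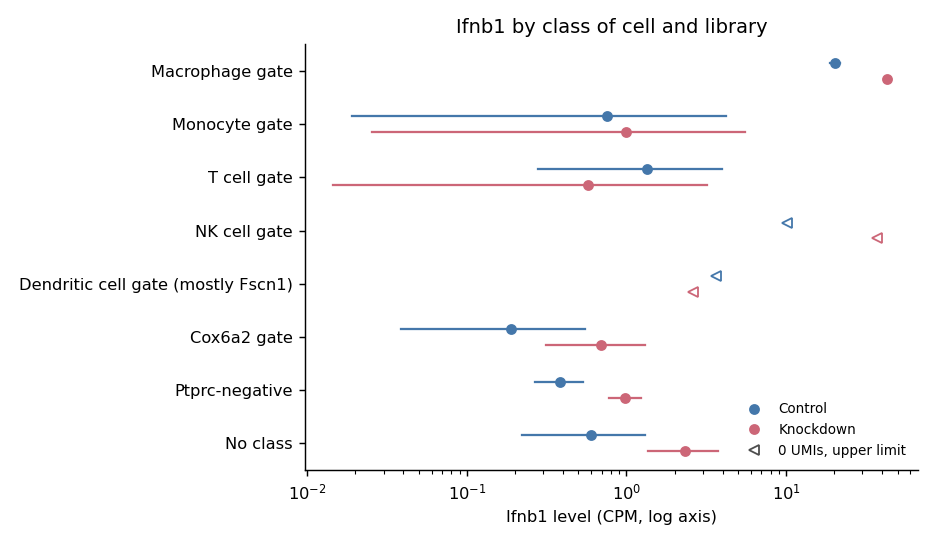
Ifnb1 level in CPM (log axis) by gated class of cell in the control tumour and knockdown libraries, with exact Poisson 95% intervals. Macrophages stand at 20.3 and 43.0 CPM, and no other class with an Ifnb1 UMI exceeds 2.33 CPM. Open triangles mark 0 UMIs, drawn at the level of 3 counts.

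Outside the macrophage gate Ifnb1 was sparse. Ptprc-negative cells, the class used as the background, had 36 UMIs in 34 of 4788 control cells (0.710%, 0.383 CPM) and 77 UMIs in 59 of 5101 knockdown cells (1.16%, 0.984 CPM). These cells were deep, with medians of 17704 and 13521 UMIs. With every cell thinned to 4000 UMIs and shallower cells left out, 0.133% and 0.427% of them were positive, against 4.75% and 10.3% of macrophages. Thinning left out 1324 control and 2561 knockdown macrophages.

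Cells of the T cell gate had 3 Ifnb1 UMIs in 331 control cells (1.35 CPM, 0.278 to 3.94) and 1 in 301 knockdown cells (0.573 CPM, 0.0145 to 3.19). Monocyte-gated cells, marked by Ly6c2, Plac8 and Ccr2, had 1 UMI in each library, in 222 control and 129 knockdown cells. Natural killer gated cells had 0 UMIs in 34 control and 17 knockdown cells, which allows up to 8.82% and 17.6% of such cells with an Ifnb1 UMI. These limits stand for 3 counts and concern cells with a UMI, not cells expressing the gene, since most positive cells hold 1 or a few UMIs. The intervals of these T cell and monocyte classes overlapped those of the Ptprc-negative cells, so a level above that background was not detectable at this depth. This holds only for cells outside the C1q gate, since cells passing both gates were counted as macrophages. Of those, 230 control and 300 knockdown cells of the T cell gate held 11 and 30 Ifnb1 UMIs (8.38 and 22.8 CPM). For the monocyte gate, 295 and 237 such cells held 16 and 18 (11.1 and 16.9 CPM).

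Dendritic cells, a known source of interferon-beta, could not be judged well. The gate for conventional dendritic cells took 101 control and 171 knockdown cells with 0 Ifnb1 UMIs, which allows up to 2.97% and 1.75% of such cells with an Ifnb1 UMI. Cells that also passed the C1q gate were counted as macrophages and are not among them. Of those, 40 control cells held 2 Ifnb1 UMIs in 2 cells (19.1 CPM, 2.31 to 68.97) and 157 knockdown cells held 12 in 8 cells (30.0 CPM, 15.5 to 52.5). Most of its marker UMIs were Fscn1 (59.2% control, 75.0% knockdown), with Flt3 at 4.69% and 2.64% of them, and Ptprc was at 64.3 and 30.4 CPM. The gate for plasmacytoid dendritic cells went against its name. Its 682 control and 722 knockdown cells had 7467 and 6434 UMIs of Cox6a2 but 0 of Siglech and Klk1 in both libraries, so it is called the Cox6a2 gate. It held 3 Ifnb1 UMIs (0.188 CPM) in the control tumour and 9 (0.688 CPM) in the knockdown library.

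Most of the scattered Ifnb1 molecules came singly. Of the 47 control cells outside the macrophage gate with Ifnb1, 45 had 1 UMI and none had over 2. Of 81 in the knockdown library, 76 had 1 UMI, 3 had 5 or more and the highest had 13. Per 1000 C1q UMIs, Ptprc-negative cells held 3.18 Ifnb1 UMIs (2.23 to 4.41) in the control tumour and 7.22 in the knockdown library, against 1.45 (1.36 to 1.56) and 3.46 in macrophages. The part of free RNA or of attached macrophage material in these counts was not tested.

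Within macrophages Ifnb1 was concentrated in a few cells. The positive cells had a mean of 2.93 UMIs (SD 2.93 over 284 cells) and a median of 2 in the control library, and a mean of 2.66 (SD 2.62 over 576 cells) and a median of 2 in the knockdown library. The highest cell had 17 UMIs in the control tumour and 21 in the knockdown library. A single UMI was found in 123 control (43.3%) and 266 knockdown (46.2%) positive cells. At the other end, the 48 control cells with 5 or more UMIs, 1.00% of macrophages, held 48.3% of the UMIs, and the 95 such knockdown cells, 1.70%, held 45.2%.

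Few genes of its abundance were in so few cells. In control macrophages 1458 genes had a UMI total within 20% of that of Ifnb1, and they were found in a median of 660 cells, against 284 for Ifnb1. Only 6 of them were in fewer cells. In knockdown macrophages there were 1291 such genes in a median of 1108 cells, against 576, and 3 were in fewer. The variance of Ifnb1 UMIs over cells was 5.67 times the mean in the control tumour and 4.96 times the mean in the knockdown library.

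**Figure D2:**
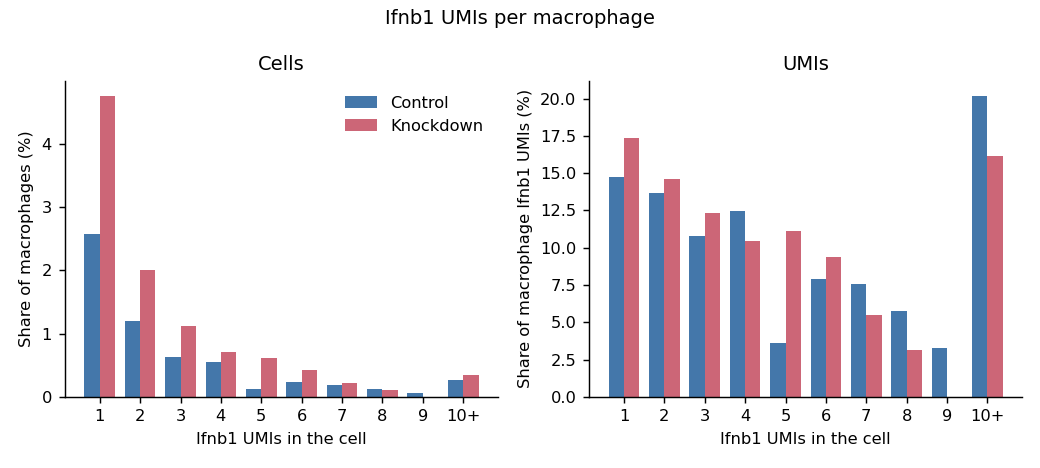
Left, share of macrophages (%) by number of Ifnb1 UMIs in the cell; right, share of macrophage Ifnb1 UMIs (%) held by those cells. A larger share of knockdown than of control macrophages holds each of 1 to 4 UMIs, while cells with 5 or more hold 48.3% of the control and 45.2% of the knockdown UMIs.

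A larger share of macrophages was Ifnb1-positive in the knockdown library. The macrophage level there was 2.11 times that of the control library, a log2 ratio of 1.08 (0.96 to 1.20). The share of positive cells was 1.73 times as high, and 2.16 times as high after thinning to 4000 UMIs, which leaves out the shallower cells of both libraries. The mean number of UMIs per positive cell was 0.907 times that of the control, and 0.937 times after thinning. Relative to all UMIs of the cells, which were shallower in the knockdown library, Ifnb1 in positive macrophages was at 333 CPM there and at 296 CPM in the control, and the median positive cell had 3.29 and 2.43 Ifnb1 UMIs per 10000. Whether a positive cell held more or less Ifnb1 thus depended on the scale. With 1 tumour in each group, the hairpin and the tumour cannot be told apart.

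The other type I interferon genes had few UMIs. Ifnz had 82 in the control tumour and 73 in the knockdown library, 60 and 44 of them in Ptprc-negative cells. Ifna2 had 39 UMIs in the control tumour and 74 in the knockdown library, and 33 and 66 of them were in macrophages. Ifna2 was at 4.62 CPM in Ifnb1-positive against 0.524 CPM in Ifnb1-negative control macrophages, and at 5.65 against 1.29 CPM in the knockdown library. In the macrophages with 5 or more Ifnb1 UMIs it reached 19.1 CPM (8.72 to 36.2) and 18.2 CPM (10.6 to 29.1). Ifna4 had 7 and 4 UMIs. Alpha-interferon genes are near-identical copies, so the assignment of these molecules to 1 member is uncertain. Ifng, the type II interferon of T and natural killer cells, had 1928 and 2038 UMIs, more than Ifnb1, and was at 253 and 378 CPM in the T cell gate.

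A small set of genes differed by 2-fold or more between Ifnb1-positive and Ifnb1-negative macrophages. For each gene the CPM of positive cells was set against that of negative cells of the same library, with Ifnb1 left out of the totals. Of 10036 genes with at least 200 macrophage UMIs in each library, 24 were at least 2-fold higher in the positive cells of both (0.239%) and 9 at least 2-fold lower in both (0.0897%). The median gene had a log2 ratio of -0.05 in each library over the 12712 genes with at least 50 UMIs. Positive cells were deeper, at a median of 7237 against 5986 UMIs in the control tumour and 5546 against 4194 in the knockdown library. Against negative cells standardised to the same depth, all 24 genes stayed at least 2-fold higher, and 4 of the 9 at least 2-fold lower.

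The sensor Ifih1, which encodes MDA5 and detects long double-stranded RNA, was among the highest. It was at 701 CPM in positive and 196 CPM in negative control macrophages, and at 722 and 278 CPM in the knockdown library, log2 ratios of 1.84 (1.77 to 1.91) and 1.38 (1.32 to 1.43). It was found in 92.6% of positive and 46.0% of negative control cells. It was the only 1 of 23 measured sensors and adaptors at least 2-fold higher in both libraries, against 0.354% of the 12712 genes. Of the 23, 14 were above 0 in both and 5 below 0 in both, where 22.9% and 40.9% of all genes were. Cd14, the lipopolysaccharide co-receptor, was lower, at 136 against 199 CPM in the control tumour and 124 against 206 CPM in the knockdown library. Mavs, the adaptor of Ifih1, and Tbk1, a kinase downstream of several sensors, had log2 ratios between -0.12 and -0.02.

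The factors that bind the Ifnb1 enhancer and their kin had medians of 0.03 and 0.06. Of the 17, 8 were above 0 in both libraries and 3 below 0 in both (22.9% and 40.9% of all genes), and 0 were at least 2-fold higher in both, a count near the 0.354% of all genes. Jun had the highest ratio of the 4 most abundant, at 1530 against 1050 CPM in the control tumour and 1742 against 1198 CPM in the knockdown library. Atf3, a stress-induced relative of ATF2, had log2 ratios of 0.35 and 0.33, and Irf7, the factor that amplifies interferon production, 0.42 and 0.32. Rela, the main NF-kB subunit, had 0.00 and 0.03.

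The interferon receptor and its signalling genes had medians of -0.01 and 0.06. Ifnar1 was at 49.8 CPM in positive and 50.2 CPM in negative control macrophages, and at 49.99 and 51.3 CPM in the knockdown library, with log2 ratios of -0.01 (-0.27 to 0.24) and -0.04 (-0.24 to 0.16). Ifnar2 had log2 ratios of 0.18 (-0.01 to 0.37) and 0.06 (-0.10 to 0.23). The receptor kinases were Jak1, at 0.05 and 0.06, and Tyk2, at -0.55 (-1.15 to 0.00) and 0.05 (-0.34 to 0.42). Of the factors that act in the nucleus, Stat2 had 0.27 and 0.05, and Irf9 -0.07 and 0.18. Of the 9 genes of this list, which also holds Ifngr1 and Ifngr2, 4 were above 0 in both libraries and 2 below 0 in both, beside 22.9% and 40.9% of all genes.

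Most interferon-stimulated genes were higher in the positive cells. Of 25 measured, 22 were above 0 in both libraries and none below 0 in both, where 22.9% and 40.9% of all genes were. At least 2-fold higher in both were 6 of them, against 0.354% of all genes. Their median log2 ratio was 0.62 in the control tumour and 0.37 in the knockdown library, and 0.70 and 0.41 against depth-standardised negative cells. In the knockdown library the medians of chemokines (0.51) and of cytokines and costimulation (0.49) were higher. Ifit2, an RNA-binding antiviral protein, had the highest ratio of them. It was at 515 CPM in positive and 110 CPM in negative control macrophages, and at 559.6 and 204 CPM in the knockdown library. The log2 ratios were 2.22 (2.14 to 2.31) and 1.46 (1.39 to 1.52), and 75.7% of positive control cells had it against 32.0% of negative ones.

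The other 5 of the 6 were Ifit1, Rsad2, Oasl1, Mx1 and Mx2. Ifit1, a partner of Ifit2 that binds foreign RNA caps, was at 478 against 128 CPM in the control tumour and 438 against 198 CPM in the knockdown library. Rsad2, the antiviral enzyme viperin, was at 794 against 212 CPM and 638 against 289 CPM. Oasl1, which restrains translation of Irf7, had log2 ratios of 1.79 and 1.34. Mx1 and Mx2 had 1.19 and 1.15, and 1.49 and 1.18; RefSeq lists both as transcribed pseudogenes in its reference strain.

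Not every gene of the class followed. Isg15, a ubiquitin-like modifier, was at 942 against 362 CPM in the control tumour and 1065 against 602.5 CPM in the knockdown library, log2 ratios of 1.38 and 0.82. The 2 most abundant members were nearly level. Ifitm3, which blocks viral entry, had 0.17 and 0.09, and the tether protein Bst2 had 0.22 and 0.05. Gbp2, a GTPase induced strongly by interferon-gamma, had -0.19 and 0.05. Isg20 and Xaf1 also had opposite signs in the libraries. Ifitm1, a relative of Ifitm3 outside the list, was among the lowest genes and is given below.

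**Figure D3:**
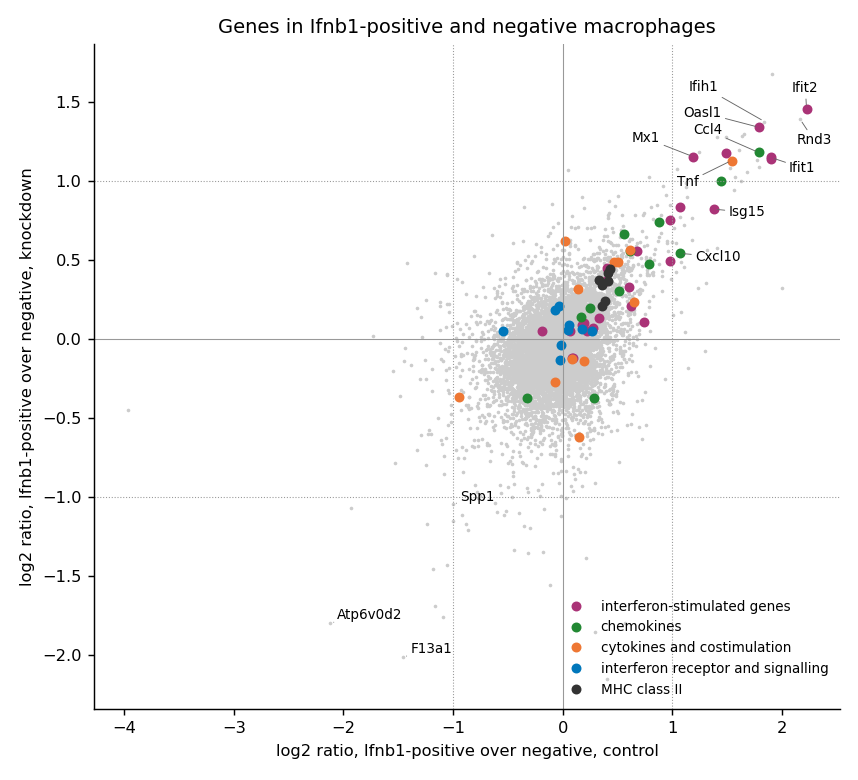
Log2 ratio of CPM, Ifnb1-positive over Ifnb1-negative macrophages, in the control library (x axis) against the knockdown library (y axis) for 10036 genes, with 5 gene lists coloured and dotted lines at 2-fold. Ifit2, Ifih1, Rnd3 and Ccl4 lie beyond 2-fold higher in both libraries, the receptor gene Ifnar1 lies near 0, its kinase Tyk2 at -0.55 on the x axis and 0.05 on the y axis, and Atp6v0d2 and F13a1 beyond 2-fold lower in both.

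Most chemokines were higher in the positive cells too. Ccl4, the chemokine MIP-1-beta that draws T cells, was at 4421 against 1280 CPM in the control tumour and 3908 against 1724 CPM in the knockdown library. Its log2 ratios were 1.79 (1.76 to 1.82) and 1.18 (1.16 to 1.20). Its neighbour Ccl3 had 1.45 and 1.00. Of 12 measured chemokines 10 were above 0 in both libraries and 1 below in both (22.9% and 40.9% of all genes), with medians of 0.59 and 0.51. Cxcl10, itself induced by interferons and a ligand of Cxcr3 on T cells, was at 747 against 355 CPM and 757 against 520 CPM. Ccl2, which draws monocytes, had 0.25 and 0.19. Cxcl2, a neutrophil attractant, was the gene below 0 in both, at -0.32 and -0.37.

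Tnf led the cytokines that were well detected. It was at 521 against 179 CPM in the control tumour and 522 against 239 CPM in the knockdown library, log2 ratios of 1.54 (1.46 to 1.62) and 1.13 (1.06 to 1.20). Il12b, a subunit of interleukin-12, had 1.68 (0.92 to 2.38) and 1.45 (0.83 to 2.04) from only 21 and 34 UMIs in positive cells. Of 15 measured cytokine and costimulation genes, 10 were above 0 in both libraries and 2 below (22.9% and 40.9% of all genes), with medians of 0.47 and 0.49. Cd86, a costimulatory ligand, had 0.50 and 0.49. Il1a, an alarm cytokine, had -0.07 and -0.27.

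The feedback inhibitors of these pathways were modestly higher. Of 11 measured, 9 were above 0 in both libraries and 1 was below 0 in both, beside 22.9% and 40.9% of all genes. Tnfaip3, the A20 enzyme that dampens NF-kB, was at 120 against 64.5 CPM in the control tumour and 103 against 64.7 CPM in the knockdown library. Usp18, which blocks Ifnar2 signalling, had 0.22 (-0.07 to 0.49) and 0.43 (0.23 to 0.63). Ppp1r15a, the stress phosphatase subunit GADD34, which restores translation and is known to be needed for interferon-beta protein output, was at 618 against 203 CPM and 655 against 286 CPM. Hspa1a, a heat shock protein, had 1.18 in the control tumour and 0.63 in the knockdown library, and the immediate early gene Junb had -0.10 and -0.05.

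Antigen presentation genes made a small, even shift. All 7 measured genes of MHC class II presentation were above 0 in both libraries, where 22.9% of all genes were, between 0.21 and 0.45, with medians of 0.38 and 0.37. H2-Ab1 was at 3517 against 2642 CPM in the control tumour and 4330 against 3242 CPM in the knockdown library. Of 10 genes of resting macrophages, 4 were above 0 in both libraries and 4 below, near the 40.9% of all genes below and beside 22.9% above, with medians of -0.02 and 0.05. Trem2, a lipid receptor, had -0.16 and -0.07. The C1q genes themselves set the gate and positive cells had more of them, a median of 219.8 against 185 per 10000 in the control tumour and 211 against 126 in the knockdown library.

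Several of the highest genes were on none of the lists. Rnd3, a protein that loosens the actin skeleton, was at 119 against 26.6 CPM in the control tumour and 120.4 against 45.9 CPM in the knockdown library, log2 ratios of 2.17 and 1.39. The gene ranked first by its lower library was the long non-coding RNA 0610043K17Rik, at 17.1 against 4.54 CPM and 15.6 against 4.90 CPM. Other long non-coding RNAs among the highest were F630028O10Rik, Gm31522, AW011738 and Gm13822. Gm13822 lies 881 bases from Oasl1 in RefSeq on GRCm38.p6, and it had 1.40 and 1.28 where Oasl1 had 1.79 and 1.34. One further gene had an identifier in place of a symbol.

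**Figure D4:**
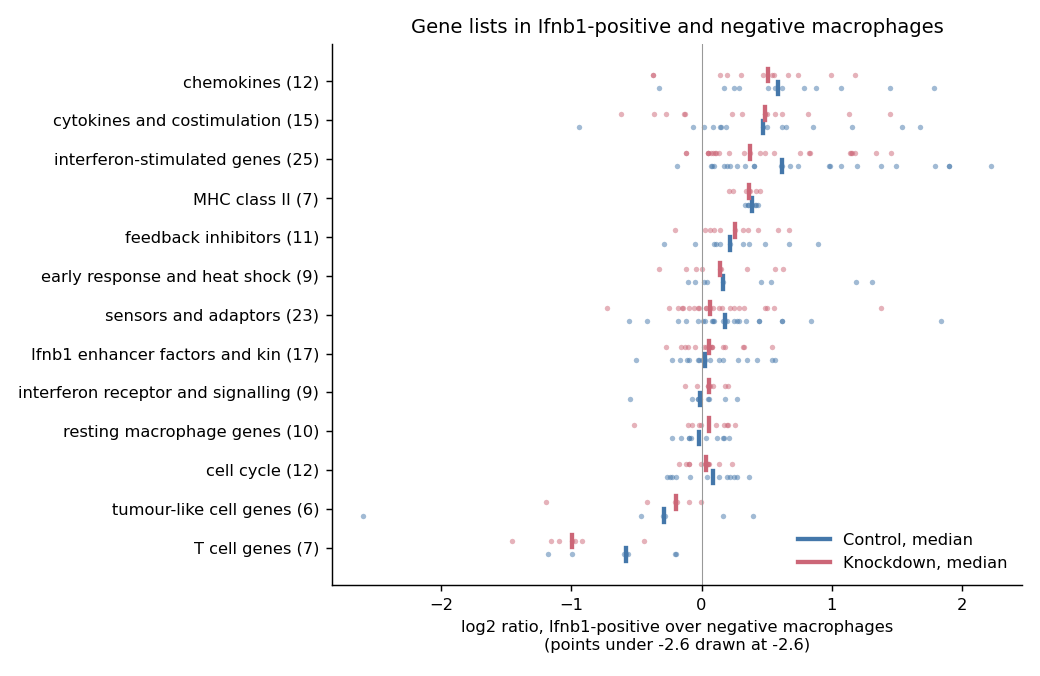
Log2 ratio of CPM, Ifnb1-positive over negative macrophages, for each measured gene (points) of 13 lists and the list median (bars) in both libraries, with the number of genes in brackets. Medians run from 0.62 for interferon-stimulated genes in the control library and 0.51 for chemokines in the knockdown library down to -0.58 and -0.99 for T cell genes.

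The lowest genes were of mixed origin. Spp1, which encodes osteopontin, was at 377 against 754 CPM in the control tumour and 183 against 378 CPM in the knockdown library, log2 ratios with intervals of -1.09 to -0.91 and -1.15 to -0.94. Atp6v0d2, a subunit of the lysosomal proton pump in phagocytes and osteoclasts, had -2.12 and -1.79 from 11 and 15 UMIs in positive cells. F13a1, a clotting factor chain of monocytes and tissue macrophages, was at 22.8 against 62.5 CPM and 9.78 against 39.4 CPM. Ifitm1, of the same family as Ifitm3 but on none of the lists, had log2 ratios of -1.05 and -1.43. These came from 21 and 18 UMIs in positive cells, and the control value turned to 0.25 after thinning.

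T cell transcripts, markers of another cell type, were also lower in the positive cells. All 7 T cell genes were below 0 in both libraries, where 40.9% of all genes were, with medians of -0.58 and -0.99. Against depth-standardised negative cells the medians were -0.35 and -0.91, and Trbc2 and Cd8b1 were at 0.06 and 0.01 in the control library. Over the alternatives tried the list's median ran from -2.89 to -0.13 in the control and from -1.78 to -0.28 in the knockdown library. The T cell gate was passed by 2.46% of positive and 4.96% of negative control macrophages, and by 1.74% and 5.78% in the knockdown library. Among the 10 lowest genes, Cd3g, Cd8a, Themis and Cxcr6 are T cell genes, Hbb-bs is the red cell globin and Ly6c2 a monocyte gene. Leaving out macrophages that passed another gate turned Cd8a to 0.63 and Cxcr6 to 0.82 in the control library, and 3 genes were then at least 2-fold lower. Only 4 of the 9 still had enough UMIs to be ranked. Of 6 tumour-like genes 4 were below 0 in both libraries, beside the same 40.9% of all genes, and 2 had opposite signs, with medians of -0.29 and -0.20.

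Levels were also read by the number of Ifnb1 molecules in the cell. Ifit2 in control macrophages was at 110 CPM in cells with 0 Ifnb1 UMIs, 435 with 1, 482 with 2 to 4 and 795 CPM with 5 or more. In the knockdown library the same steps gave 204, 504, 569 and 658 CPM. Ifit2, Ccl4 and Spp1 were chosen for their ratio of positive over negative cells, and cells with 1 UMI are among the positive ones, so the step from 0 to 1 is no separate result. Ccl4 went from 1280 to 3586, 4338 and 6698 CPM in the control library, and from 1724 to 3161, 4531 and 4321 CPM in the knockdown library, where the last step was not higher. Spp1 went from 378 to 218, 195 and 87.6 CPM in the knockdown library. In the control library it was 754, 375, 396 and 333 CPM. Ifnar1 stayed between 44.1 and 58.8 CPM at all steps of both libraries.

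**Figure D5:**
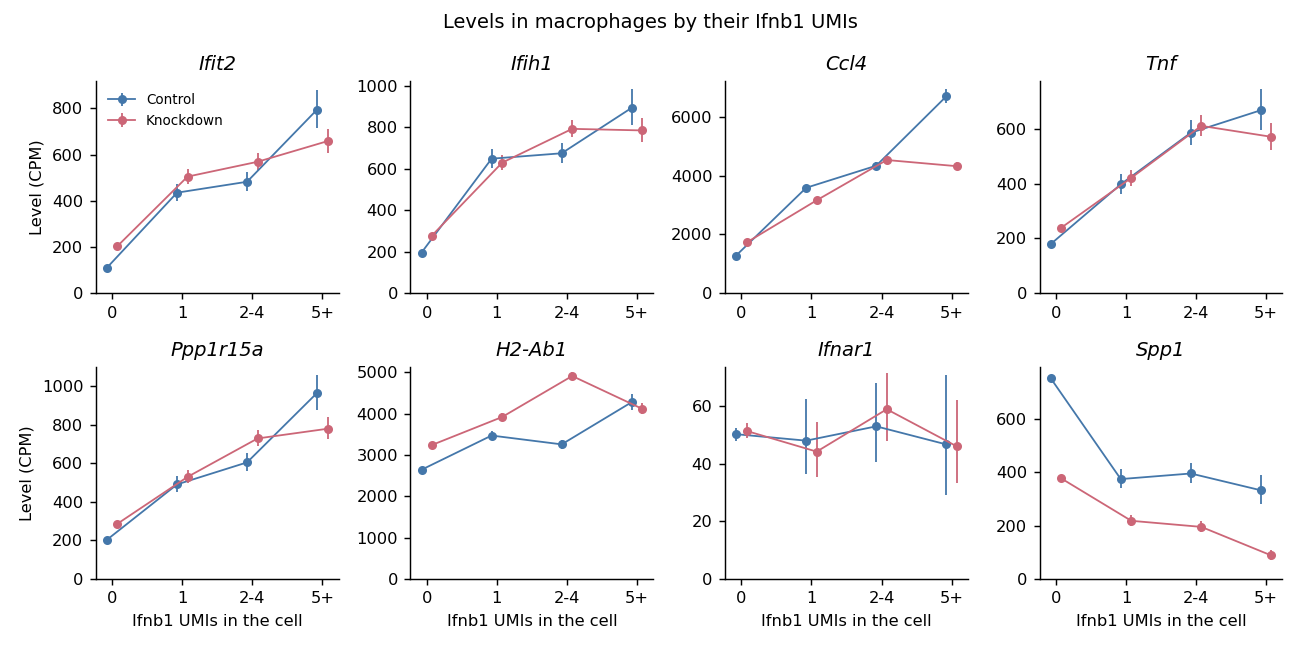
Level in CPM (y axis, from 0) of 8 genes in macrophages with 0, 1, 2 to 4 and 5 or more Ifnb1 UMIs (x axis), with exact Poisson 95% intervals. Ifit2 is at 110 CPM with 0 and 795 CPM with 5 or more in the control library, Spp1 is lower at every step above 0, and Ifnar1 stays between 44.1 and 58.8 CPM.

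Likeness to Ifnb1 was also ranked cell by cell, as Pearson's correlation of log counts over 3456 control and 3033 knockdown macrophages thinned to 4000 UMIs. Cells of 1 library share its preparation, so this is a description only. Ifit2 came first, with r = 0.32 in the control tumour and 0.30 in the knockdown library. Ifit1, Ccl4, Ifih1, Ppp1r15a, Tnf, Rsad2 and Isg15 followed, the last with 0.24 and 0.25. The median of 10036 genes was -0.01 in each library and the 99th percentile 0.08 and 0.11. All 8 are also among the genes named above, 7 of them at least 2-fold higher in both libraries, beside 0.239% of the 10036 genes. Both rankings rest on the Ifnb1 counts of the same macrophages, so this overlap is no separate result.

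The promoters of these genes were read for the motifs named above, among them the IRF repeat, which the window of Ifnb1 itself lacks. Of the 8 most correlated genes 7 matched a RefSeq promoter, and 4 of the 7 hold the IRF repeat, where 3.04% of 27025 windows do. None of the 7 spells the NF-kB motif. Of the 15 highest genes 10 matched, with the IRF repeat in 3, and of the 10 lowest 9 matched, with the repeat in 1. The highest and the most correlated genes overlap, so Ifit1 and Ppp1r15a are counted in both groups. The 4 stretches of 50 bases are shown with the repeat in capitals on GRCm38.p6, each written 5′ to 3′ on the gene's own strand. They are chr19:34640765-34640814 (plus strand) for Ifit1, chr4:156200867-156200916 (minus strand) for Isg15, chr12:26456543-26456592 (minus strand) for Rsad2 and chr7:45526459-45526508 (minus strand) for Ppp1r15a.
Ifit1: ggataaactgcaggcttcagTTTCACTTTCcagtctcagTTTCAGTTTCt
Isg15: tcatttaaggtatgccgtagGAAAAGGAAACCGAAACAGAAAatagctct
Rsad2: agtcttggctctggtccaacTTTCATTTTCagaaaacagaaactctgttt
Ppp1r15a: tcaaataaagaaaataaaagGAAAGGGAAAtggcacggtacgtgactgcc
Ifit1 holds the repeat at 2 places on the opposite strand, and Isg15 holds 3 overlapping repeats.

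The libraries also differed in macrophages without any Ifnb1 UMI. In Ifnb1-negative macrophages all 25 interferon-stimulated genes were higher in the knockdown than in the control library, with a median log2 ratio of 0.39. Over all 12712 genes 65.8% were above 0 and the median was 0.08. None of the 25 was 2-fold higher there, against 0.472% of all genes. Isg15 was at 602.5 CPM in knockdown and 362 CPM in control negative cells, a log2 ratio of 0.74. In Ifnb1-positive macrophages 20 of the 25 were higher in the knockdown library, with a median of 0.12, where 58.7% of all genes were above 0. Levels in positive cells were thus closer between the libraries than in negative ones for these genes, as for Ifit2 at 515 and 559.6 CPM. This difference of differences was not tested. Negative cells may hold Ifnb1 RNA that was not captured, and those of the knockdown library were shallower, at a median of 4194 against 5986 UMIs. The part of this in the differences was not tested.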

How the data were processed

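Single cells of 2 tumours were profiled with the 10x Genomics platform, 1 library per group. The deposited matrices hold raw UMI counts for each gene in each cell. Cell Ranger made them, version 6.1.0 per the file headers and 3.1.0 per the submitters' processing notes. The genome build and annotation are not given in the sources used here. CPM is a gene's summed UMIs over all summed UMIs of the same cells. Classes were set by 9 gates on summed marker UMIs per 10000. A cell outside the macrophage gate that passed exactly 1 gate took that class, one that passed none and had 0 Ptprc UMIs was Ptprc-negative, and the rest had no class. Doublets were kept, and removed by Scrublet rank (1148 control and 1322 knockdown cells) as an alternative; Scrublet's own threshold marked 9.13% and 16.3%. Intervals are exact at 95% and cover counting error only. They treat UMIs as independent although a few cells hold many of them. No p-value was computed.

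The genes named were the 15 highest and 10 lowest by the positive over negative log2 ratio, ranked by the lesser library, the 8 with the highest correlation, every interferon gene with a UMI, the receptor genes and up to 4 abundant genes of each of 15 lists; further list members were named after their values were seen. The gene, lists and rules were chosen with earlier results of these data known, so no list is independent evidence. Genes named by a list needed at least 50 macrophage UMIs per library. One list and some single genes are not reported here. The scripts were tested on simulated data. Python 3.11.15, numpy 2.4.6, scipy 1.17.1, pandas 2.3.3, scanpy 1.11.5 and matplotlib 3.10.9 were used.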

Additional observations from a re-analysis of the deposited data

Results flagged for a closer look

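Il1b, an inflammatory cytokine, and Ube2c, a mitotic enzyme, had opposite signs in the libraries, each beyond its counting interval. The log2 ratio of Ifnb1-positive over negative macrophages was 0.19 in the control tumour and -0.14 in the knockdown library for Il1b, and -0.19 and 0.13 for Ube2c. Against depth-standardised negative cells the knockdown values were closer to 0, at -0.02 for Il1b and 0.06 for Ube2c, and the control values were 0.21 and -0.22. The difference between the libraries was not tested.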

How the results depend on the processing

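No paired analysis was possible because each group had 1 library, and no replicate could be left out. Of the 56 alternatives for the main values 42 left the value within its counting interval or count range. Thinning gave 4.75% positive control macrophages, counting cells with at least 2 Ifnb1 UMIs gave 3.37% and 5.54% in the control and knockdown libraries, and leaving out cells of another gate gave 11.1% in the knockdown library. A C1q gate of 20 lowered the share of Ifnb1 UMIs held by macrophages to 92.6% and 91.3%. Leaving out doublets by Scrublet rank gave a knockdown over control log2 ratio of 0.94. The count of genes at least 2-fold higher ranged from 20 to 31. The count of genes at least 2-fold lower, 9, was unstable: 4 with depth-standardised negative cells, 24 after thinning, 48 with every cell weighted equally, 4 with a C1q gate of 20, 19 without doublets, 3 without cells of another gate and 4 with at least 5 C1q UMIs, an alternative added after seeing the data. After thinning 1 of the 9 was among the 24, and 3 of the 9 had enough UMIs to be ranked. Signs turned in the control library for Cxcr6 (0.82) and Cd8a (0.63) without cells of another gate, and for Themis (0.16) and Ifitm1 (0.25) after thinning; the cause was not tested. Of 504 values of named genes 364 stayed in their interval, 136 moved without a change of sign and 4 turned. Of 308 list medians 269 stayed and 39 moved. Depth limits the classes with under 400 cells, where a few UMIs set each level.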

Other observations

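Ifnz, a type I interferon gene of the same cluster, had another distribution than Ifnb1. Of its UMIs 9 in the control tumour and 18 in the knockdown library were in macrophages. Its level was 0.639 and 0.562 CPM in Ptprc-negative cells and 0.220 and 0.505 CPM in macrophages. In the control library each of its 82 UMIs was in a different cell, whereas the 883 Ifnb1 UMIs of that library were in 332 cells.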
